A study of Mus musculus with 5 samples.

Results

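A set of 10 genes of the circadian clock and its direct output was followed through a dilution of one mouse RNA into another. They were the output factors Dbp and Tef, the period genes Per1, Per2 and Per3, the REV-ERB receptors Nr1d1 and Nr1d2, and the activators Arntl (also called Bmal1), Clock and Npas2. The genes were taken by name, and all 10 were found among the 12393 genes that the array annotation names singly. They were read by 19 of 22626 probe sets, each naming 1 gene only. The brightest probe set of a gene, by its mean over the arrays, was its main probe set.

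Total RNA came from whole C57BL/6 mice killed at day 1 of age and from the colon of C57BL/6 adults aged 8 weeks, with several animals pooled for each tissue. The pools were mixed to colon shares of 0%, 25%, 50%, 75% and 100% of total RNA, and 10 ng of each mix was amplified in 2 rounds with T7 polymerase and hybridised to 1 Affymetrix mouse array. There were thus 5 arrays and no replicates, and their number limits the precision of every value. No treatment, allele or transgene is named for any group. The labels give no hour of collection for either tissue, so tissue, age and hour of the day cannot be told apart in any difference below.

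The mammalian clock is a feedback loop of transcription. ARNTL pairs with CLOCK, or with its relative NPAS2, binds E-boxes and drives the period, cryptochrome and REV-ERB genes. PER and CRY proteins then repress that pair, and the REV-ERB receptors repress Arntl through ROR response elements. DBP and TEF are driven by the same E-boxes and pass the rhythm on to genes with a D-box, where NFIL3 acts as the opposing repressor. In tissues such as gut and liver the level of these transcripts swings over the day, and Arntl runs in a phase opposite to Dbp and Nr1d1. Rhythms of peripheral tissues in rodents gain amplitude after birth.

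The elements through which these genes act on each other were looked up in their promoters, because these genes are known to act on each other through them. RefSeq promoter windows (GRCm38.p6, 250 bases before to 50 after a start) were matched for 9 members in 14 windows, with Per2 unmatched. The motifs were the E-box CACGTG, the D-box TTATGTAA or TTACGTAA, and the ROR response element by name, each searched on both strands, and no window of these genes held more than 1 kind. The E-box was found in Tef and Per1, 2 of 9 members, against 8.09% of 27025 genes. The D-box was found in Per3 alone of the members, in 2 copies, against 1.23% of genes. Arntl alone held the ROR response element, against 0.459% of genes. A match of letters is a description and does not show binding. The stretches around these matches are printed 5′ to 3′ on the strand of the gene, with the motif in capitals, in the order Per1 (chr11:69098758-69098813), Tef at its upstream start (chr15:81802521-81802576), Tef at its downstream start (chr15:81811251-81811306), Per3 (chr4:151044791-151044895, minus strand) and Arntl (chr7:113207528-113207557).
Per1: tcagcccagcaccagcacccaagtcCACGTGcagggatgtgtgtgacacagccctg
Tef upstream start: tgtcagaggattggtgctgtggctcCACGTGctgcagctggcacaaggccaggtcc
Tef downstream start: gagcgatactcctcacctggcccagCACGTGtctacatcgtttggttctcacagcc
Per3: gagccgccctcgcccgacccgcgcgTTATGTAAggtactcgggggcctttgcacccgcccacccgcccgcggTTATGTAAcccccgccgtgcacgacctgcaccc
Arntl: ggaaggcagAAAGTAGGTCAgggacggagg

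The arrays were alike in scale, with median log2 signals between 6.83 and 6.92. As a check of the labels, the mean log2 signal of 6 colon epithelium markers went from 7.23 in whole mouse to 11.65 in colon. That of 5 smooth muscle markers went from 10.16 to 11.92, though Des among them went down, from 11.53 to 11.13. Means of 4 liver markers went from 13.18 to 6.84, of 4 skeletal muscle markers from 13.63 to 6.33, of 3 epidermal markers from 12.38 to 6.40 and of 3 neuronal markers from 8.16 to 5.99. The mean of 3 cycling cell markers stayed between 8.66 and 8.96. The make-up of the tissue thus moved along the dilution, and its part in the results below was not tested. In bulk RNA, fewer cells of a type and less RNA per cell cannot be told apart.

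Most of the output, period and REV-ERB genes were higher in adult colon, and the 3 activators were not shown to differ in their main probe sets. Of the 10 genes, Dbp, Tef, Per2, Per3, Nr1d1 and Nr1d2 rose with the colon share, none fell, and Per1, Arntl, Clock and Npas2 did not pass. "Rose" and "fell" stand for a slope of the log2 signal on the colon share that passed a limma test over all 5 arrays at a Benjamini-Hochberg adjusted p of 0.05, adjusted over 22626 probe sets. The slope runs from pure whole mouse to pure colon RNA and is called the fitted difference below. Among all 12393 genes, 9.8% rose and 14.5% fell by the same rule, beside 6 and 0 of these 10. The gene list and the tests were chosen with earlier results of these data known, so this contrast is a description only. Without adjustment, limma gave a p under 0.05 for 7 of the 10 with a positive slope and for 0 with a negative one. The share of all genes at that unadjusted level is not given here, so these counts have no background beside them. The median fitted difference was 0.70 for the 10 genes and −0.01 for all genes. These p-values measure how far the log2 signals of the arrays scatter about a line, not the spread between mice. That scatter includes any bend away from a straight line, so a large difference can fail to pass. The colon marker Car1 (168-fold between the undiluted arrays, limma adjusted p = 0.174) did not pass. Nor did the liver marker Alb (149-fold, limma adjusted p = 0.136). A low adjusted p thus depends on the shape of the curve as well as on its size.

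**Figure D1:**
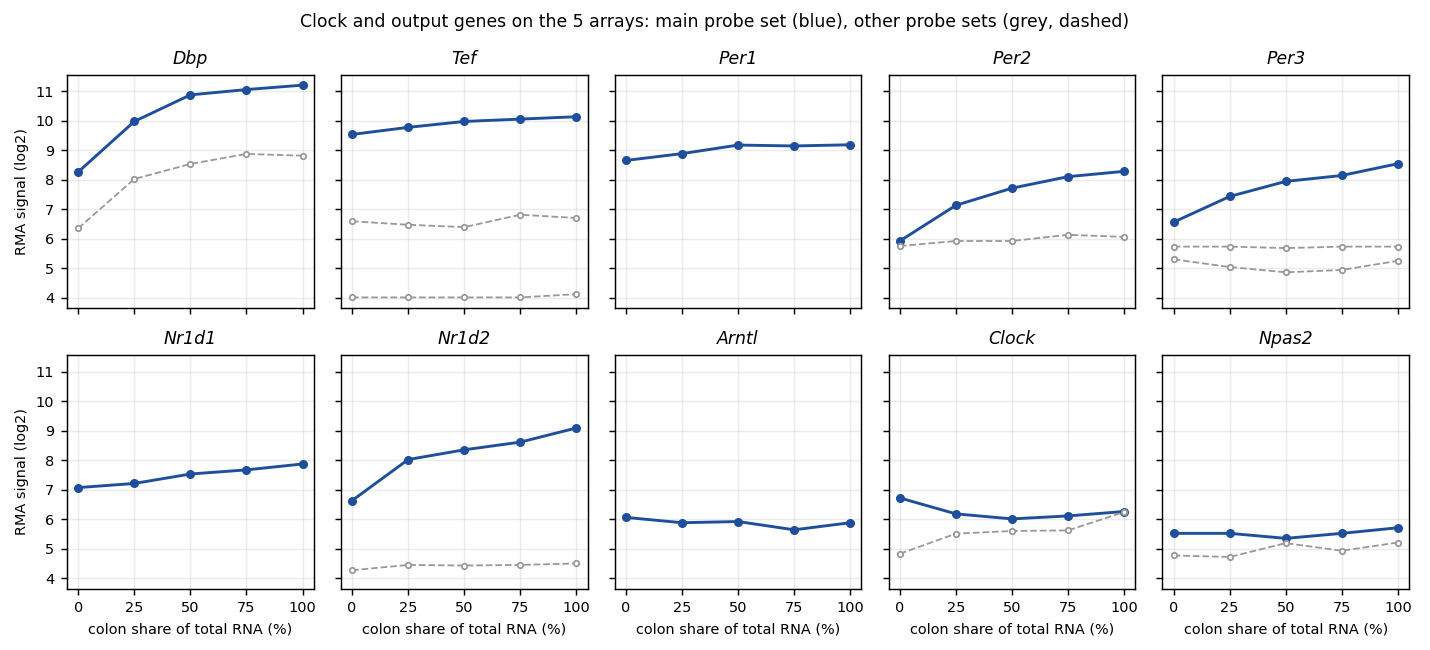
RMA log2 signal (y axis) of the 10 genes against the colon share of total RNA in percent (x axis), 1 array per point, with the main probe set in blue and other probe sets in grey and dashed. The main probe sets of Dbp, Per2, Per3 and Nr1d2 climb by 1.98 to 2.94 log2 units between the undiluted arrays. Other probe sets of Per2, Per3 and Nr1d2 differ by −0.05 to 0.31 between these arrays. Arntl, Clock and Npas2 stay within 0.71 in their main probe sets. Small spans are also seen for Tef (0.60), Per1 (0.53) and Nr1d1 (0.79), and the dimmer Clock probe set spans 1.41.

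Dbp, a PAR bZIP activator and among the strongest rhythmic outputs of the clock, had the largest difference of the 10. Its main probe set had log2 signals of 8.26 in whole mouse, 9.97 at 25% colon, 10.87 at 50%, 11.05 at 75% and 11.20 in colon. Each array was higher than the one before it, and most of the climb lay below 50% colon. That shape is not particular to Dbp, since the colon marker Cdx1 had steps of 2.59, 0.89, 0.14 and 0.33. The mixtures are set against linear mixing below. The undiluted arrays differed 7.66-fold, and the fitted difference was 2.78 log2 (SE 0.61, adjusted p = 0.0386 by limma). A dimmer probe set of Dbp had 6.35, 8.02, 8.53, 8.87 and 8.81 in the same order of rising colon share, which is kept below. It gave a fitted difference of 2.31 (SE 0.58) and did not pass (limma adjusted p = 0.0527).

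Tef, the other PAR bZIP member, had a smaller fitted difference than Dbp, a gap that was not itself tested. Its main probe set had 9.53, 9.77, 9.97, 10.05 and 10.13, again in strict order. The fitted difference of 0.59 log2 (SE 0.12, limma adjusted p = 0.03) is a 1.5-fold change. Its other 2 probe sets did not pass, with fitted differences of 0.23 and 0.09. The dimmer of these lay at 4.01 on 4 arrays and 4.12 in colon, below the lower quartile of all signals on every array, and holds little information.

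The period genes encode the repressors that close the loop. Per2 had 5.92, 7.13, 7.71, 8.10 and 8.28, rising at every step. Its undiluted arrays differed 5.16-fold and its fitted difference was 2.28 log2 (SE 0.36, limma adjusted p = 0.019). Per3, the member with a pair of D-box matches in its promoter window, had 6.56, 7.43, 7.94, 8.14 and 8.54. It too rose at every step, by a fitted 1.87 log2 (SE 0.23, limma adjusted p = 0.0113) and 3.94-fold between the undiluted arrays.

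Per1, the period gene that also responds quickly to light, hormones and other acute signals, showed a smaller difference. Its single probe set had 8.65, 8.88, 9.17, 9.14 and 9.18, so the 3 arrays with the most colon lay between 9.14 and 9.18. The fitted difference of 0.53 log2 (SE 0.15) did not pass (limma adjusted p = 0.0671). With arrays centred on their medians it passed (0.61, limma adjusted p = 0.0389), so that 7 of the 10 genes rose, beside 15.6% of all genes. It also passed in a test kept to probe sets reaching a log2 signal of 7 (limma adjusted p = 0.0463), where 19.1% of genes rose.

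The REV-ERB receptors, haem-binding nuclear receptors that repress Arntl, both rose. Nr1d2 (REV-ERB beta) had 6.63, 8.02, 8.35, 8.61 and 9.09, a 5.48-fold span between the undiluted arrays. The first step, from whole mouse to 25% colon, was the largest at 1.39 log2 units. Its fitted difference was 2.20 log2 (SE 0.38, limma adjusted p = 0.0229). Nr1d1 (REV-ERB alpha), with 7.07, 7.21, 7.53, 7.67 and 7.87, went up by 0.14 to 0.32 log2 units at each step. Its fitted difference of 0.82 log2 (SE 0.10) was among the smaller ones of the 6 that rose, yet had the lowest adjusted p (0.0107 by limma), and its SE was the smallest among the 10 main probe sets.

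No activator of the loop passed in its main probe set, and their difference from the genes above was not tested. Arntl, the obligate partner in the activating pair and the member whose promoter window holds the ROR response element, had 6.06, 5.88, 5.92, 5.64 and 5.88 in its single probe set. Whole mouse was the highest array and 75% colon the lowest, with no order between. The fitted difference was −0.24 log2 (SE 0.16, limma adjusted p = 0.385). That size leaves room for a modest fall and does not show that Arntl is equal in both tissues.

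Clock gave opposite signs in its 2 probe sets. The brighter had 6.72, 6.18, 6.01, 6.11 and 6.26, a dip in the mixtures, with a fitted −0.40 log2 (SE 0.27, limma adjusted p = 0.385). The dimmer had 4.83, 5.51, 5.60, 5.62 and 6.24, rising at every step by a fitted 1.18 (SE 0.23, limma adjusted p = 0.0306). The direction of Clock is therefore not settled by this array. The mixtures of the brighter probe set lay below both undiluted arrays, at 0.43, 0.50 and 0.28 log2 units under linear mixing, outside the range that the undiluted arrays span.

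Npas2, which can stand in for CLOCK, was dim in both of its probe sets. The main one had 5.52, 5.52, 5.35, 5.52 and 5.71, with the same value on 3 arrays, and a fitted difference of 0.16 (SE 0.16, limma adjusted p = 0.565). The other had 4.77, 4.72, 5.19, 4.93 and 5.21, below the lower quartile of all signals on every array, and a fitted 0.43 (SE 0.19, adjusted p = 0.196). RMA's median polish gives such tied values between arrays in 40.5% of the probe sets tested, and ties do not show an equal level.

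**Figure D2:**
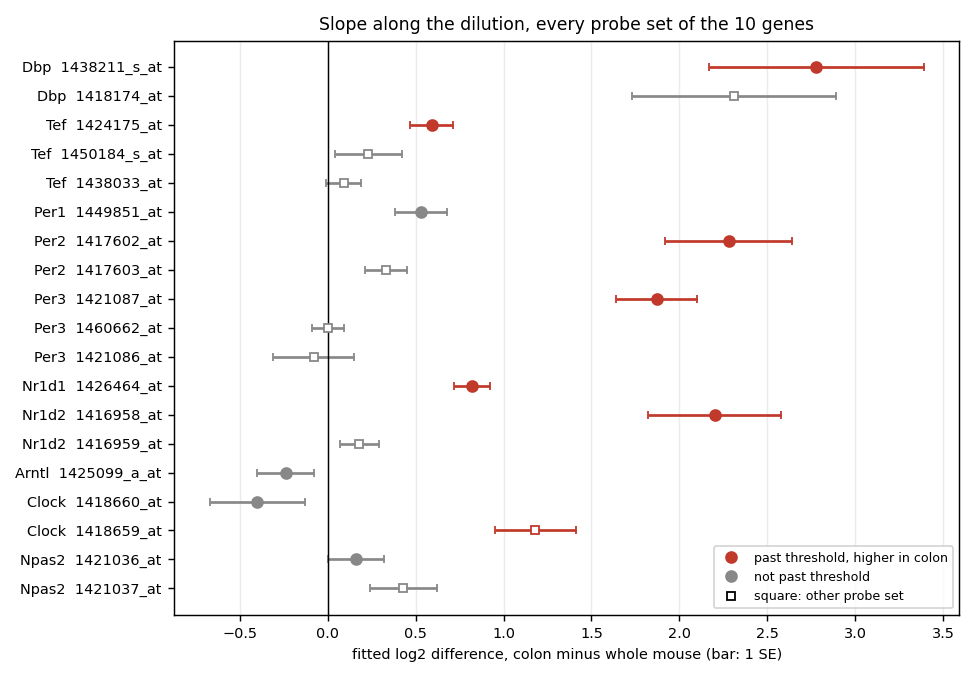
Fitted difference in log2 units, positive when higher in colon (x axis), with a bar of 1 SE, for each of the 19 probe sets (y axis), with filled circles for main probe sets, open squares for others and red for those past an adjusted p of 0.05. The 6 red circles lie between 0.59 and 2.78, and the 1 red square is the dimmer Clock probe set at 1.18.

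Probe sets of a gene often disagreed in size. Of the 9 probe sets that were not the main one, 1 passed, that of Clock, beside 8.63% of all probe sets that rose. The second probe set of Per2 had a fitted difference of 0.33 against 2.28 in the main one, and that of Nr1d2 0.18 against 2.20. Per3 had 2 dim probe sets at 0.00 and −0.08 against 1.87. Of these 9, 4 lay below the lower quartile of all signals on every array, namely those of Tef, Per3, Nr1d2 and Npas2 with the lowest signals. Among the 7 genes with more than 1 probe set, only Dbp had a second one with a difference above 2 log2 in the same direction. With the probe sets of a gene averaged, 5 of the 10 genes rose, beside 13.3% of all genes, and Tef was no longer among them. The averages gave fitted differences of 1.31 for Per2, 0.60 for Per3 and 1.19 for Nr1d2.

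Between the undiluted arrays alone, Dbp again had the largest difference of the 10. Of the 10 main probe sets, 4, those of Dbp, Per2, Nr1d2 and Per3, were at least 2-fold higher in colon, and 0 were at least 2-fold higher in whole mouse. Over all genes these shares were 9.26% and 10.4%. Each undiluted RNA had 1 array, so these are sizes without a test. Of the 10 main probe sets, 6 had their 5 arrays in strict rising order, beside 8.66% of all genes. They are those of the 6 genes that rose. Order and slope come from the same 5 values, so the order adds no separate support to these calls.

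The calls rested on the whole series of arrays. With the 50% mixture left out, 2 of the 10 genes rose (Per3 and Nr1d1, beside 2.31% of all genes), and with the 75% mixture or the colon array left out, 0 did (beside 1.03% and 0.815%). Without the whole mouse array or without the 25% mixture, Per2, Per3, Nr1d1 and Nr1d2 rose in each case, beside 2.48% and 6.47% of all genes. Dbp and Tef passed in none of these 5 limma fits, each of which has fewer residual degrees of freedom. The sign of the 6 genes' slopes stayed positive in all 5. An unadjusted limma p under 0.05 with a positive slope was found for 6 of 10 genes without the whole mouse array. It was found for 7 of 10 in each of the other fits. These unadjusted counts have no share of all genes beside them. The size for Dbp moved with either undiluted array. Its fitted difference was 2.78 with all arrays, 1.54 without the whole mouse array and 3.71 without the colon array. The fitted difference of Nr1d2 was likewise 2.20 with all arrays, 1.38 without the whole mouse array and 2.5 without the colon array.

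How closely the mixtures followed the mixing was described for the genes at least 2-fold apart. The apparent colon share is the distance of a mixture from the whole mouse array in linear intensity, as a percentage of the way to the colon array. At 50% colon it was 76.6% for Dbp, 59% for Per2, 54.8% for Per3 and 51% for Nr1d2. The median over 1853 probe sets at least 2-fold higher in colon was 62.6%. In that mixture Dbp lay above the median and the other 3 genes below it. At 25% colon all 4 lay below the median of 43.1%, with 34.2% for Dbp, 31.8% for Per2, 28% for Per3 and 36.1% for Nr1d2.

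Dbp exceeded linear mixing in each of the mixtures, by 0.30, 0.50 and 0.20 log2 at 25%, 50% and 75% colon. Of the 1853 probe sets, 91.8%, 82.9% and 46.7% exceeded it in these mixtures. At 25%, 55.9% of them had a larger excess than Dbp, and at 75%, 17.4% did. At 50%, 8.9% of the 1853 probe sets had a larger excess, and 9.88% exceeded the value of the second Dbp probe set (0.48). Per3 had deviations of 0.07, 0.08 and −0.10. Nr1d2 had 0.30, 0.02 and −0.15, and the median over the 1853 probe sets was 0.33, 0.17 and −0.02. Both went down along the dilution, but at 50% colon Nr1d2 lay below the lower quartile of 0.05. Per2 kept 0.19, 0.17 and 0.14. With 1 array per mix these deviations have no error of their own.

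**Figure D3:**
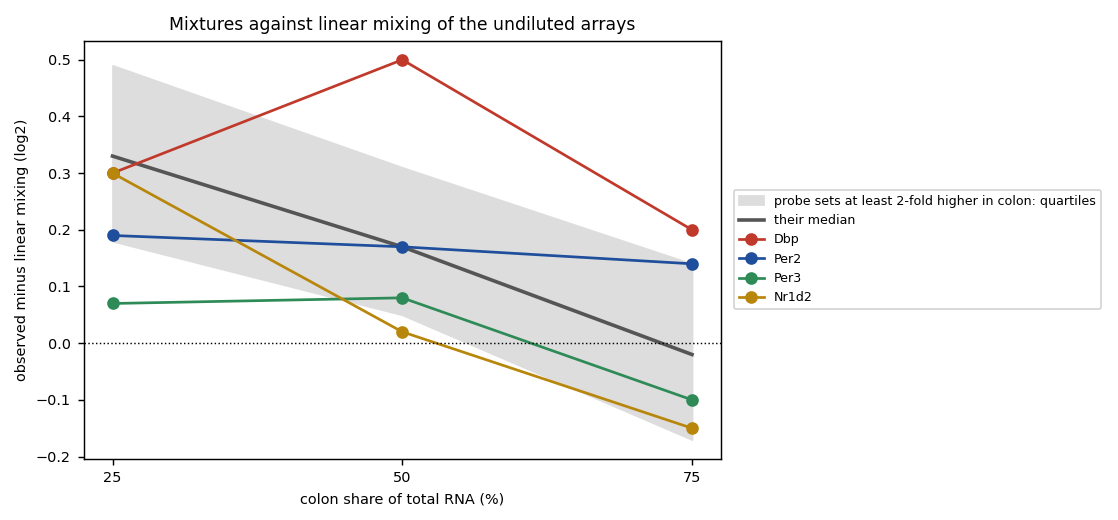
Observed log2 signal minus the value expected from linear mixing of the undiluted arrays (y axis) at 25%, 50% and 75% colon (x axis) for the 4 genes at least 2-fold higher in colon, with the median (grey line) and quartiles (grey band) of 1853 such probe sets. Dbp stands at 0.50 at 50% colon, above the upper quartile of 0.31.

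Other genes of the clock were taken from a list of 28, of which 24 had a probe set naming them alone. Of these 24, 4 rose and 3 fell, beside 9.8% and 14.5% of all genes, with a median fitted difference of 0.11. The 4 that rose were Cipc, Noct, Bhlhe40 and Nampt, and the 3 that fell were Nfil3, Lpin1 and Csnk1e.

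**Figure D4:**
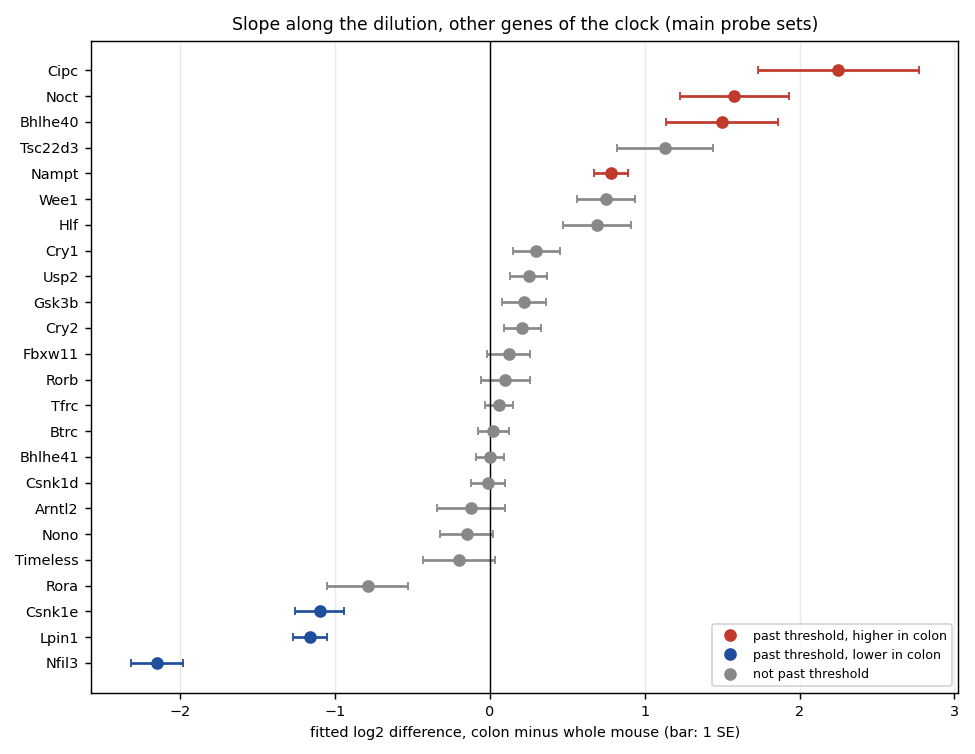
Fitted difference in log2 units, positive when higher in colon (x axis), with a bar of 1 SE, for the main probe sets of 24 other clock genes (y axis), with red for genes that rose, blue for genes that fell and grey for those not past the threshold. Cipc is highest at 2.25 and Nfil3 lowest at −2.15.

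Nfil3, the bZIP repressor that competes with DBP and TEF at the D-box, ran opposite to Dbp. Its signals were 7.33, 7.08, 6.50, 5.76 and 5.31, falling at every step. The fitted difference of −2.15 log2 (SE 0.17, limma adjusted p = 0.00476) stayed past the threshold without each array in turn (highest adjusted p = 0.0459, without the colon array). None of the 10 clock genes did so. Hlf, the remaining PAR bZIP factor, had 7.17, 7.40, 7.40, 7.40 and 8.03 and did not pass (0.69, limma adjusted p = 0.0885). Dbp and Tef thus had fitted differences of opposite sign to that of Nfil3, while the positive one of Hlf was not past the threshold. The Nfil3 signal of 5.31 in colon lay below the lower quartile of that array (5.46), where signals are limited by background.

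Among repressors and modifiers of the loop, 2 of 7 measured genes rose and none fell, beside 9.8% and 14.5% of all genes. Cipc, an inhibitor of the CLOCK and ARNTL pair, had 8.44, 9.89, 10.57, 10.77 and 10.81 and climbed mostly below 50% colon. It rose by a fitted 2.25 log2 (SE 0.52, limma adjusted p = 0.0438), and its other 2 probe sets had 1.65 and 1.85. Bhlhe40 (DEC1), which represses at E-boxes, rose by 1.5 log2 (limma adjusted p = 0.0461), with 8.46 in whole mouse and 10.19 in colon. The cryptochromes, the partners of PER in repression, did not pass. Cry1 lay between 5.97 and 6.37 and Cry2 between 7.64 and 7.92, with fitted differences of 0.30 and 0.21. The other 3 of the 7, Bhlhe41, Timeless and Nono, had between −0.20 and 0.00.

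Of 5 measured kinases and ubiquitin ligases, 0 rose and 1 fell, beside 9.8% and 14.5% of all genes. The 1 that fell was Csnk1e, a casein kinase that marks PER proteins for degradation. It had 7.91, 7.80, 7.60, 7.25 and 6.80, a fall by 1.10 log2 (SE 0.16, limma adjusted p = 0.0144), and −0.06 in its second probe set. Csnk1d, its close relative, lay between 12.09 and 12.25 in its main probe set. Gsk3b, Btrc and Fbxw11 had fitted differences from 0.02 to 0.22. Rora, an activator at the element where REV-ERB represses, had −0.79 and did not pass (limma adjusted p = 0.102), nor did Rorb (0.10) or Arntl2 (−0.12).

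Of 7 measured rhythmic outputs 2 rose and 1 fell, beside 9.8% and 14.5% of all genes, so the share that fell is near that of all genes. Noct (nocturnin), a phosphatase of nicotinamide cofactors with a strong daily rhythm, had 7.13, 8.28, 8.50, 8.65 and 8.92 and rose by 1.58 log2 (limma adjusted p = 0.0394). Nampt, the rate-limiting enzyme of the NAD salvage pathway, rose by 0.78 (limma adjusted p = 0.015) and had 0.37 in its second probe set. Lpin1, a phosphatidate phosphatase of lipid synthesis, fell by 1.16 (limma adjusted p = 0.00662) and had −0.36 in its second probe set. The cell cycle kinase Wee1 (0.75, limma adjusted p = 0.0522) and the glucocorticoid-induced Tsc22d3 (1.13, limma adjusted p = 0.0654) did not pass, though 1 of the other Tsc22d3 probe sets did (0.61, limma adjusted p = 0.0399). Without the colon array 0 of the 24 genes rose and 1 fell (beside 0.815% and 5.1% of all genes), and without the 75% mixture 0 rose and 2 fell (beside 1.03% and 6.87%). Unadjusted limma p-values under 0.05 then stood at 5 and 4 without the colon array, and at 7 and 4 without the 75% mixture. These counts too have no share of all genes beside them. Without the 50% mixture 1 rose (Nampt) and 3 fell, beside 2.31% and 8.4% of all genes. Without the whole mouse array 1 rose (Noct) and 3 fell, beside 2.48% and 5.86%. Leaving out the whole mouse array moved the fitted differences of Cipc to 1.18, Bhlhe40 to 0.74 and Noct to 0.83. Without the colon array they were 3.06, 1.80 and 1.91.

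Genes outside both lists with a profile most like that of Dbp were sought among 12359 genes by the distance between log2 profiles, each centred on its own mean over the 5 arrays. The nearest were Cutal at a distance of 0.14, Gucy2c, the guanylin receptor of intestinal epithelium, at 0.19, and Gne, an enzyme of sialic acid synthesis, at 0.19. Their fitted differences were 2.83, 2.74 and 2.72 log2, beside 2.78 for Dbp. For Clock, whose main probe set had the lowest slope of the 10, the nearest were Il3ra, Acot6 and Crhr1, at distances from 0.08 to 0.09, and none of these passed. A dilution of 5 arrays leaves many genes with like profiles.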

How the data were processed

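The authors deposited log2 signals, 1 per probe set and array, made with RMA per the submitters' processing notes (version and settings are not given in the sources used here). Of 22690 probe sets, 64 controls were left out and 22626 tested. The annotation named 1 gene for 20380, several for 691 and none for 1555, and symbols were updated through gene identifiers against RefSeq (20351 matched). Arrays were grouped by the mix in their labels. A line of log2 signal against colon share (0 to 1) was fitted to each probe set with lmFit and eBayes of limma 3.58.1 in R 4.3.3, with 3 residual degrees of freedom, 2-sided p-values and Benjamini-Hochberg adjustment over all probe sets. The fit was also run on simulated data with slopes that were straight lines in log2. That run cannot show how the fit treats mixtures that bend on this scale. A further 10 alternative settings were tried. The members, the related genes, the other lists and the tests were chosen with earlier results of these data known. All 10 members were to be named, with each related gene past the threshold, the others by count and range (some were also named here after their values were seen), and the 3 nearest profiles of the members with the highest and lowest slope. Promoter windows came from RefSeq (GRCm38.p6).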

Additional observations from a re-analysis of the deposited data

How the results depend on the processing

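Of 97 fitted differences of the clock genes under 10 alternative settings, 71 kept their direction and side of the threshold, 21 kept the direction but no longer passed, 2 newly passed and 3 changed sign. Clock was 0.39 with probe sets averaged. Leaving out an array gave −0.80 (no colon array) to 0.13 (no whole mouse array) for Clock and −0.07 (no colon array) to 0.30 for Npas2. Leaving out an array gave 0 to 4 clock genes that rose and 0 that fell, 0 to 4 related genes that rose and 1 to 3 that fell, and 168 to 1306 probe sets that rose and 829 to 1692 that fell. With probe sets of a gene averaged, 7 related genes rose beside 13.3% of all genes, and Tef no longer passed (0.30, adjusted p = 0.0769). Centring the arrays on their medians, which lie within 0.09 of each other, raised the probe sets that rose from 1953 to 3148, and then 7 clock genes rose beside 15.6% of all genes. Of 10 clock genes, 3 (Arntl, Clock and Npas2) never reached a log2 signal of 7 in their main probe set and were not tested under that filter, and small changes of dim probe sets are limited by background. No paired analysis was possible because each mix had 1 array and the labels give no replicate numbers.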
